A study of Caenorhabditis elegans with 22 samples.

Results

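The libraries described here are those of adult Caenorhabditis elegans that received DMSO and no compound, compared between the groups of consecutively numbered libraries in which they were made. Of 22 libraries in all, 11 belong to DMSO animals: 4 in the third library series (numbers 25 to 28), 4 in the second (13 to 16) and 3 in the first (1, 3 and 4). The members were chosen by treatment and library number alone, and every gene of the table entered the comparison. The third and second series each hold 2 libraries of N2, the wild-type strain, 1 of the ser-7(vq2) mutant and 1 of the ser-5(vq1) mutant, and the first series holds 1 library of each strain. The ser-5 and ser-7 genes encode serotonin receptors. All these animals, mutants and wild type alike, were sterilised with 0.12 mM FUDR at the L4 stage, fed killed bacteria in liquid medium, kept in under 0.3% DMSO and harvested after 72 h of adult life in the vehicle, so no group is untouched by drug or solvent. The libraries with a compound that are used for comparison had 5 mM serotonin in water or 50 µM loxapine, an antipsychotic, for the same 72 h. The labels also give a batch tag, and each series holds 1 tag for most of its libraries and another for 1 N2 library. They do not say whether the series differ in culture, day, RNA extraction or sequencing lane, so these cannot be told apart.

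Whole worms hold a germline that makes up much of the adult's RNA, an intestine that digests bacteria and secretes lysozymes, saposin-like proteins and C-type lectins into its lumen, a cuticle-secreting epidermis, muscle and a small nervous system. One set of genes, the intracellular pathogen response, is known to be switched on when microsporidia or a virus enter intestinal cells and also by some proteotoxic stresses. It consists mostly of pals genes, a large family of unknown biochemical function, with the SCF ubiquitin ligase genes cul-6, skr-3, skr-4 and skr-5. Another set, the intraflagellar transport and BBSome genes, builds the cilia that only sensory neurons carry in this animal.

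Total counts were 25652111 to 34249323 per DMSO library in the third series, 37868214 to 39765014 in the second and 36762514 to 37430037 in the first. The receptor transcripts followed the strain labels: ser-7 had 0 to 1 count in each ser-7 library, and ser-5 lay at 0.202 to 0.441 CPM (counts scaled to a common library total with TMM factors) in ser-5 libraries, against 1.26 to 2.61 CPM in the other DMSO libraries. Defining markers of muscle (unc-54, myo-3), intestine (ges-1, elt-2), epidermis (dpy-7), neurons (rgef-1, snb-1), oocytes (rme-2, oma-1) and germline (pgl-1, glh-1) were all detected, whereas the sperm markers msp-3 and gsp-3 reached at most 2.47 and 2.79 CPM. The N2 pair of a series was nearly a duplicate, with a chi-square per degree of freedom of 4.03 in the third series and 5.16 in the second, against 10.7 to 58.8 for libraries of different strains in 1 series. These N2 libraries were kept apart in the fit, so SEs and p-values may be too small, and counts with each pair summed to 1 library are given for lists where they differ by over 1.5 times. Since the labels do not say that replicates came from separate cultures, p-values measure only the spread between these libraries.

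The third series differed from the second across much of the transcriptome. Of 16091 genes tested, 4588 (28.5%) passed an adjusted p of 0.05 (edgeR's quasi-likelihood test with strain as covariate, Benjamini-Hochberg adjustment). Higher in the third series were 1961 genes (12.2% of those tested) and lower were 2627 (16.3%), and 184 and 481 of these differed by over 2-fold. With the N2 pairs summed, the counts were 1024 higher and 1751 lower, and 2744 of the genes were called in the same direction in both fits. The 4 third-series and 4 second-series libraries did not overlap for 3324 of the 4588 genes called, and for 4065 of all 16091 genes tested. Calls and overlap rest on the same libraries. Series accounted for 37% of the sum of squares of log2 CPM over these 8 libraries with 1 degree of freedom, strain for 33.3% with 2, and the remainder for 29.7%. In the same fit 1233 genes (7.66%) differed between ser-7 and N2, and 0 (0%) between ser-5 and N2, where 2106 genes had an unadjusted p under 0.05. A fit of N2 alone gave 2565 higher and 3041 lower of 15546 genes, and a fit of the mutants alone 2572 and 2478 of 15630. These are the shares beside which list counts in N2 alone and in the mutants alone stand below. The N2 fit sets 1 near-duplicate pair against another, so its spread is only that between near duplicates.

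The first series lay closer to the second over the strains together. In a fit of all 11 DMSO libraries, 2107 of 16278 genes (12.9%) differed between the third and first series and 159 (0.977%) between the second and first. These contrasts share libraries with each other and with the main one, and the first series has 1 library a strain. The level of the first series lay nearer to the second than to the third for 68.3% of the genes higher in the third series and for 74.1% of those lower.

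Libraries of animals given serotonin or loxapine provided the same contrast without sharing any sample. Among the 3 third-series libraries (N2 and ser-7 with serotonin, N2 with loxapine) and their 3 partners in the second series, 730 of 15556 genes (4.69%) differed, 315 higher and 415 lower. RLE scaling in place of TMM turned this split to 384 higher and 277 lower. Of the 1945 genes higher in DMSO and tested here, 84.7% had the same sign and 224 passed the threshold in the same direction, and of the 2595 lower in DMSO, 93.4% had the same sign and 371 passed. None of these genes was called in the opposite direction, while 43.6% of all genes had a positive value. No gene (0% of 16168) passed a test of whether the series difference itself differed between compound and DMSO libraries by edgeR, with 1410 at an unadjusted p under 0.05. The count in compound libraries was 133 without the second-series N2 serotonin library, 166 without its third-series partner, 365 and 377 without the second-series and third-series ser-7 serotonin libraries, and 321 by DESeq2.

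Among the genes with the largest higher levels were a glucocerebrosidase, a lysosomal lipase and several secreted proteins. Genes were ranked for this, higher and lower alike, only where third-series and second-series libraries did not overlap. The absence of overlap is thus a condition of their choice. In what follows, the values of a series are given in the order N2, N2, ser-7, ser-5, and those of the first series as N2, ser-7, ser-5. Y51F10.7 (chromosome I, 1911684 to 1913935, for a protein with no role given in the sources used here) had 218, 243, 181 and 217 CPM in the third series, against 16.4, 15.4, 9.51 and 12 CPM in the second, and 61.4, 45.7 and 50.4 CPM in the first. Every third-series library lay far above every other one, and the first series stood between the other two. The log2 fold change, the third over the second series, was 4.02 ± 0.09 (SE, edgeR adjusted p = 5.25e-09), and it was 3.88 ± 0.15 in compound libraries. The glucocerebrosidase gene gba-4 (chromosome IV, 5344592 to 5350897) had 48.8, 48.4, 41.8 and 51.8 CPM in the third series, against 4.14, 4.15, 4.20 and 3.99 CPM in the second and 15.2, 10.2 and 13.2 CPM in the first. Its log2 fold change was 3.52 ± 0.08 (SE, adjusted p = 6.66e-09), with a similar gap in each strain. The lysosomal lipase gene lipl-5 (chromosome V, 385746 to 387740) had 460, 520, 434 and 525 CPM in the third series, against 63.9, 62.5, 46.1 and 45 CPM in the second and 142, 131 and 144 CPM in the first. This gave a log2 fold change of 3.16 ± 0.11 (SE, adjusted p = 1.01e-07), and 3.30 ± 0.15 in compound libraries.

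Other genes among the 12 with the largest higher levels were those of the C-type lectin clec-50, the saposin-like proteins spp-17 and spp-4, the collagen col-93, the carnitine palmitoyltransferase cpt-3, the aspartyl protease asp-17, the lipase-related lips-11, dod-23, which is known to respond to the insulin pathway, and F14H12.3. Their log2 fold changes lay between 1.71 for F14H12.3 and 2.28 for dod-23. For clec-50 the levels were 737, 752, 735 and 840 CPM in the third series, against 190, 199, 133 and 153 CPM in the second and 278, 261 and 275 CPM in the first. The dod-23 values were 584, 547, 1030 and 410 CPM in the third series, against 142, 132, 120 and 104 CPM in the second. They spread far more among third-series libraries than those of clec-50, with the ser-7 library highest, though without overlap, as the choice required.

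**Figure D1:**
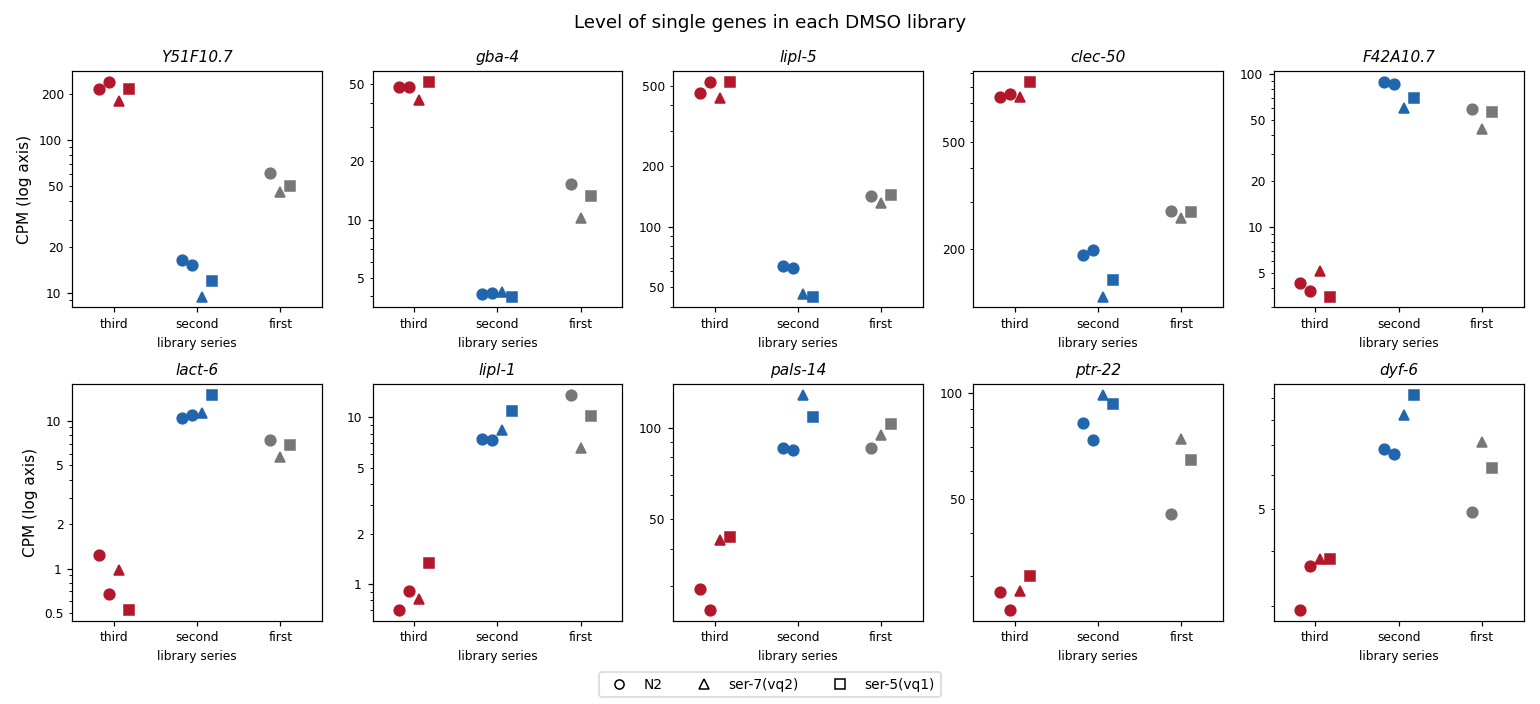
Level of 10 genes in each DMSO library, in CPM on a log axis, by library series (the third, the second, the first), with 1 point per library and the marker shape giving the strain. For each gene the 4 third-series points lie wholly above or below the 4 second-series points. This was a condition of choice for Y51F10.7, gba-4, lipl-5, clec-50, F42A10.7, lact-6 and lipl-1. Y51F10.7, gba-4, lipl-5 and clec-50 have first-series points between both.

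The genes with the largest lower levels included another lipase and another glucocerebrosidase gene. F42A10.7 (chromosome III, 6177916 to 6178686) had 4.35, 3.82, 5.15 and 3.52 CPM in the third series, against 89.3, 85.4, 60 and 69.2 CPM in the second and 59.0, 43.6 and 56.7 CPM in the first, a log2 fold change of -4.17 ± 0.14 (SE, adjusted p = 1.01e-07). In compound libraries F42A10.7 gave 31.0, 23.8 and 2.54 CPM in the third series, against 83.9, 72.0 and 86.9 CPM in the second (N2 serotonin, ser-7 serotonin, N2 loxapine), and with this spread it was not called there (adjusted p = 0.613). The lysosomal lipase gene lipl-1 had 0.703, 0.911, 0.815 and 1.34 CPM in the third series, against 7.44, 7.32, 8.38 and 10.9 CPM in the second and 13.7, 6.56 and 10.2 CPM in the first (log2 fold change -3.19 ± 0.14, adjusted p = 1.19e-06). Thus lipl-1 and lipl-5, genes of the same enzyme family, lay on opposite sides in every third-series library. The lactamase-related gene lact-6 had 1.24, 0.676, 0.978 and 0.526 CPM in the third series, against 10.4, 11, 11.2 and 15.0 CPM in the second (-3.78 ± 0.23, adjusted p = 3.72e-06). The glucocerebrosidase gene gba-2 had 1.84, 1.59, 0.946 and 2.47 CPM in the third series, against 21.2, 14.2, 3.86 and 10.9 CPM in the second and 4.84, 5.32 and 19.2 CPM in the first. The log2 fold change of gba-2 was -2.80 ± 0.26 (SE, adjusted p = 4.51e-05). The gba genes differed in opposite directions, without overlap, as the choice required. Levels of gba-2 differed several-fold between the strains of the second series, with ser-7 lowest. The other 8 of the 12 were T16G1.7, pals-11, ver-1 (a receptor tyrosine kinase of sensory organ glia), F15H10.9, clec-218, the chemoreceptor gene sri-70, the immunoglobulin-domain gene zig-13 and cyp-34A10, with log2 fold changes from -2.35 to -1.96. Of these, ver-1 and zig-13 are neighbours on chromosome III (156824 to 163542 and 154389 to 156745), and without stated strand or overlap rules for the counts their values may not be independent.

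The intracellular pathogen response had the largest share of lower genes among lists of 20 or more genes. Of 44 genes tested, 33 (75%) were lower in the third series and 1 was higher, against 16.3% and 12.2% of all genes, and the median log2 fold change was -1.40, against 0.00 over all genes. Against the first series 33 genes were lower and 0 higher by edgeR (34 and 1 at an unadjusted p under 0.05, median -1.31), and the second and first series differed in none of them by edgeR (median 0.04, 1 gene at an unadjusted p under 0.05). The count of 33 lower was found in all settings tried for lists: RLE and upper-quartile scaling, DESeq2, the 11 libraries, the N2 pairs summed, N2 alone, the mutants alone and without each library in turn. The median difference was -1.48 in N2, -1.28 in ser-7 and -0.98 in ser-5. In all 3 strains 36 genes (81.8%) were lower, against 27.4% of all tested genes. For 32 genes (72.7%) the third-series libraries all lay below the second-series ones, against 13.2% of all genes.

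Within the list, the cluster of pals genes on the right arm of chromosome I changed as a block. All 13 pals genes tested between 13104251 and 13144623 were lower. pals-14 (chromosome I, 13139122 to 13141898) had 29.4, 25.1, 42.8 and 43.7 CPM in the third series, against 86.0, 84.8, 129 and 109 CPM in the second and 86.1, 95 and 103 CPM in the first. No third-series library came within reach of the others, and the 2 mutants stood above N2 in both groups. Its log2 fold change was -1.56 ± 0.07 (SE, adjusted p = 1.41e-06). pals-28 (chromosome III) had 13.6, 12, 18.6 and 20.8 CPM in the third series, against 46.5, 49.5, 64.6 and 57.4 CPM in the second (-1.78 ± 0.09, adjusted p = 1.41e-06), and pals-33 (chromosome V) 21.2, 20.7, 24.9 and 27.5 CPM, against 48.7, 53.8, 66.9 and 65.7 CPM (-1.33 ± 0.06, adjusted p = 1.41e-06). The pals-5 gene, whose promoter is used as a reporter of the response, was lower by the same order (-1.53 ± 0.14). pals-3 and pals-12 begin at the same position in the annotation and pals genes are similar to each other, so single values of this family are uncertain as to which copy the reads belong.

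The ubiquitin ligase genes of the response were lower too. The cullin gene cul-6 had 19.5, 17.7, 26.4 and 21.4 CPM in the third series, against 26.0, 26.8, 42.6 and 37.7 CPM in the second, so that the groups overlapped slightly, and its log2 fold change was -0.64 ± 0.08 (SE, adjusted p = 0.000285). For its adaptor subunit gene skr-5 the values were 29.9, 25.5, 42.7 and 41.6 CPM in the third series, against 66.0, 66.1, 75.7 and 56.9 CPM in the second (-0.96 ± 0.12), and skr-3 and skr-4 were lower by 0.49 and 0.38 on the log2 scale. eol-1 (-1.05 ± 0.10) and F26F2.1, F26F2.3 and F26F2.4 (-1.52, -1.48 and -1.34) were lower too. Of the 11 list members not called lower, 10 lie on chromosome III, where 3 of 13 genes tested were lower and pals-24 was higher (0.25 ± 0.08, adjusted p = 0.0483). They include the antagonistic regulators of the response, pals-22 (16.4, 15.8, 16.8 and 19.1 CPM in the third series, against 18.9, 17.5, 22.6 and 19.7 CPM in the second, -0.22 ± 0.09, adjusted p = 0.0811) and pals-25 (20.4, 18.0, 18.1 and 15.7 CPM, against 15.7, 18.4, 20.4 and 19.3 CPM, -0.04 ± 0.11, adjusted p = 0.792). Both regulators overlapped between the series. The values of pals-22, pals-25, cul-6, skr-5 and eol-1 were chosen for display after they were seen.

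In the libraries with a compound, 26 of the 44 genes were lower and 0 higher by edgeR (24 and 0 by DESeq2, 29 and 0 at an unadjusted p under 0.05), with a median of -0.73. For pals-14 the values were 27.1, 60.2 and 19.7 CPM in the third series, against 52.9, 113 and 26.1 CPM in the second (N2 serotonin, ser-7 serotonin, N2 loxapine). The loxapine pair lay lowest and closest together. For 28 of the 44 genes the series difference was more positive with compound than with DMSO at an unadjusted p under 0.05, and 0 passed the adjustment. The chitinase-like genes, some of which are known to respond to oomycetes and to overlap with this response, were grouped by symbol after the values were seen: 10 of 20 chil genes were lower and 1 higher, with chil-27 at 1.77, 1.62, 2.05 and 2.35 CPM in the third series, against 5.61, 6.02, 6.81 and 6.49 CPM in the second (-1.70 ± 0.13, adjusted p = 1.63e-05). Among ubiquitin ligase adaptor families chosen in the same way, 24 of 33 math genes were lower and 0 higher (median -0.76).

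**Figure D2:**
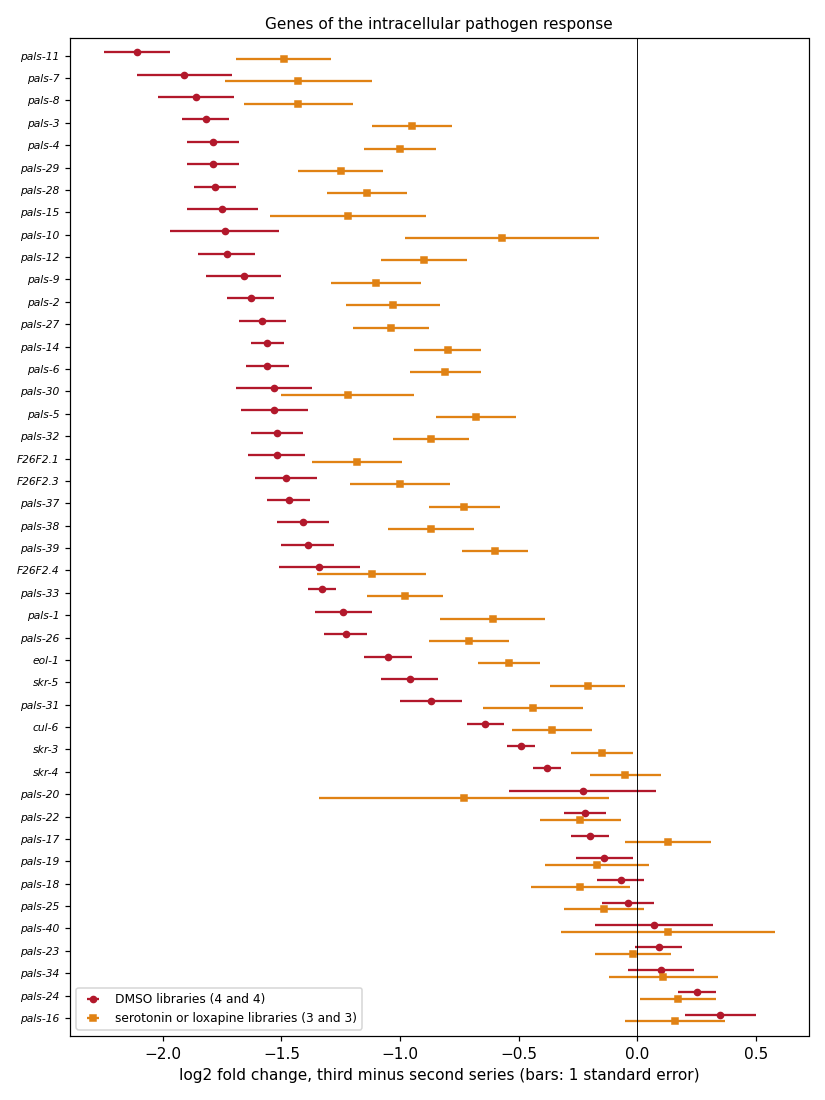
Log2 fold change, the third over the second series, of each of the 44 tested genes of the intracellular pathogen response, for DMSO libraries (4 and 4) and for libraries with serotonin or loxapine (3 and 3), with bars of 1 standard error. From pals-11 at the top (-2.11 in DMSO) to skr-4 the DMSO values are negative and called, and the compound values lie nearer to 0 for most of these genes.

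**Figure D3:**
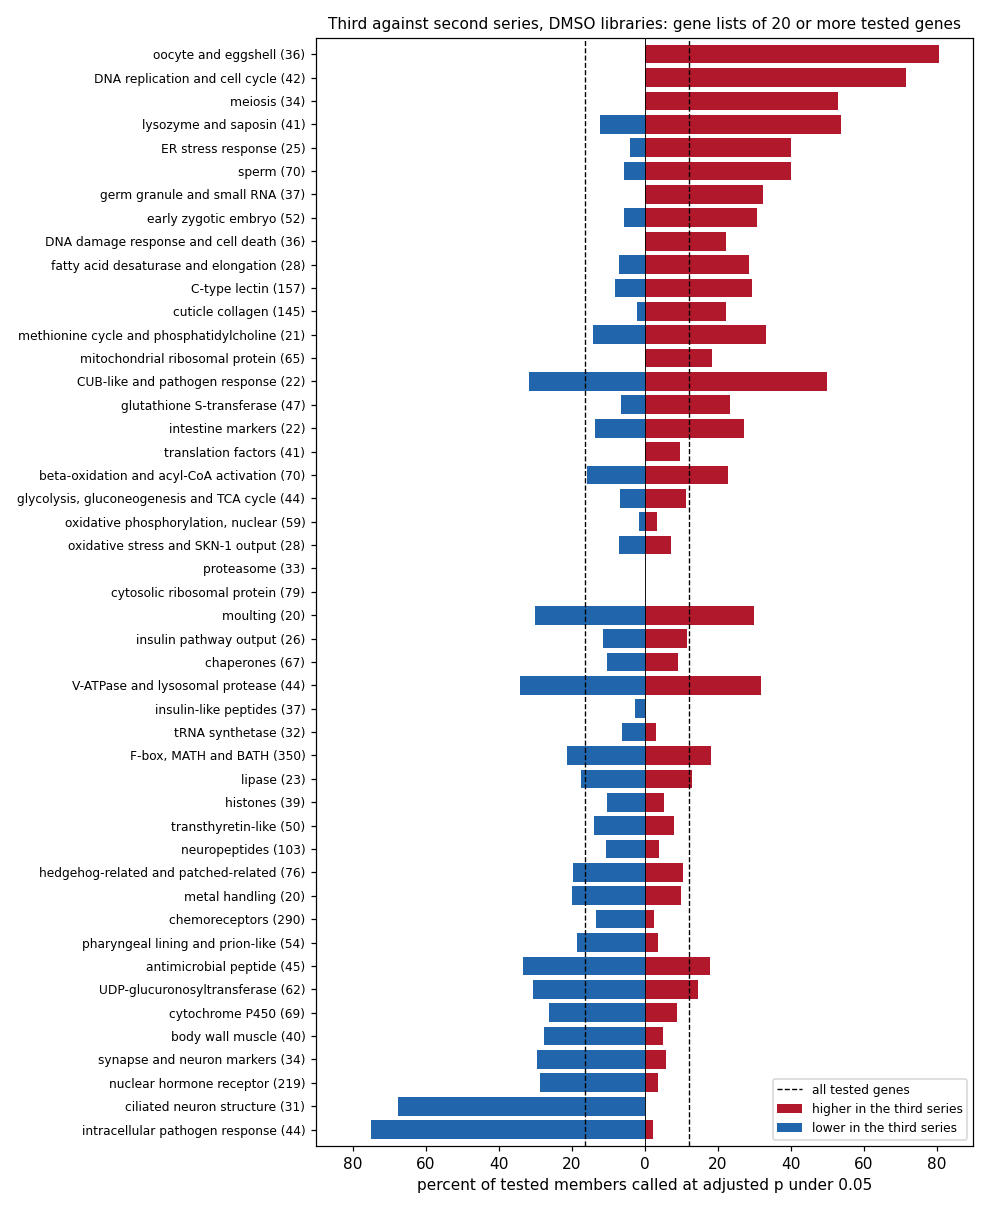
Percent of tested genes called higher (right) and lower (left) in the third series for each gene list of 20 or more tested genes, with the number tested in brackets and dashed lines at the shares of all tested genes, 12.2% and 16.3%. Intracellular pathogen response and cilium genes extend farthest to the left, and oocyte, DNA replication, lysozyme and meiosis genes farthest to the right.

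Genes of the sensory cilium were lower as a group. Of 31 tested, 21 (67.7%) were lower in the third series and 0 higher by edgeR (22 and 0 by DESeq2, 23 and 0 at an unadjusted p under 0.05), and the median log2 fold change was -0.58. In bulk RNA of whole animals, fewer cells of a type and less RNA per cell cannot be told apart, here and for every tissue below. The group level was lower in N2 (median -0.62), ser-7 (-0.46) and ser-5 (-0.91). In all 3 strains 26 genes (83.9%) were lower, against 27.4% of all tested genes. Against the first series 18 genes were lower (median -0.56), and in compound libraries 3 were lower, with a median of -0.33. dyf-6, for an intraflagellar transport protein, had 2.94, 3.70, 3.85 and 3.84 CPM in the third series, against 6.85, 6.69, 8.21 and 9.14 CPM in the second and 4.92, 7.12 and 6.20 CPM in the first. The groups stood clearly apart, with a log2 fold change of -1.11 ± 0.12 (SE, adjusted p = 0.000134). che-2, for another transport protein, had 1.64, 0.970, 0.978 and 0.607 CPM in the third series, against 2.74, 2.3, 2.11 and 3.99 CPM in the second (-1.38 ± 0.29, adjusted p = 0.00665). BBSome genes were lower by similar amounts (bbs-8 -1.02, bbs-1 -0.96, bbs-2 -0.88), as were osm-5 (-0.80), che-11 (-0.84) and daf-10 (-0.88) of the transport particles. klp-11, a motor subunit also found outside neurons, moved less: 59.1, 60, 60.6 and 57.9 CPM in the third series, against 76.2, 72.4, 78.4 and 76.3 CPM in the second (-0.36 ± 0.05, adjusted p = 0.000946). Its partner kap-1 had 27.1, 25.3, 23.6 and 27.4 CPM, against 24.4, 26.3, 25.4 and 27.1 CPM, with an adjusted p of 0.92. daf-19, the transcription factor gene of the cilium programme, was lower by 0.50 ± 0.14 (adjusted p = 0.0232), a call that ended in 6 alternatives. che-2, kap-1 and daf-19 were chosen after their values were seen.

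Other neuronal lists held fewer calls. Of 34 synapse and neuron markers 10 were lower and 2 higher (median -0.22), among them rpm-1, for a presynaptic ubiquitin ligase, with 21.4, 19.9, 16.9 and 20.0 CPM in the third series, against 31.4, 32.4, 25.6 and 34.1 CPM in the second (-0.67 ± 0.07, adjusted p = 0.0001), and unc-64, for syntaxin (-0.30 ± 0.06). The neuron marker rgef-1 averaged 2.24 CPM in the third series and 2.21 CPM in the second, with a log2 fold change of 0.00. The lower count of this list was 6 with N2 pairs summed or without library 26. Of 290 chemoreceptor genes that passed the filter on low counts, out of 1168 in the table, 39 (13.4%) were lower and 7 higher, against 16.3% and 12.2% of all genes, and the lower count was 20 with N2 pairs summed and 22 to 25 without library 13, 26, either ser-7 library or library 16. Neuropeptide genes gave 11 lower and 4 higher of 103, a pooled count over strains that differed: in N2 alone 55 were lower and 2 higher, and in the mutants alone 4 were lower and 12 higher. The pooled lower count was 3 with N2 pairs summed, and 3, 4 and 7 without N2 libraries 13, 26 and 25.

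Among the antibacterial secretions, lysozyme and saposin genes were more often higher than lower. Of 41 lysozyme and saposin genes 22 (53.7%) were higher and 5 lower, with a median of 0.36, and 20 (48.8%) had third-series libraries wholly above the second, against 12.1% of all genes. lys-4 (chromosome IV) had 232, 250, 180 and 221 CPM in the third series, against 104, 99.9, 50.1 and 89.7 CPM in the second and 180, 104 and 143 CPM in the first. Its log2 fold change was 1.39 ± 0.10 (SE, adjusted p = 9.55e-06). The invertebrate lysozyme gene ilys-2 had 28.4, 31.0, 29.7 and 21.3 CPM in the third series, against 11.6, 12.7, 9.66 and 8.97 CPM in the second (1.35 ± 0.09, adjusted p = 7.37e-06), and ilys-3 had 36.1, 38.7, 61.0 and 28.2 CPM, against 20.1, 23.1, 26.9 and 17.1 CPM (0.86 ± 0.09). spp-17 stood at 95.4, 103, 84.2 and 103 CPM in the third series, against 30.6, 30.1, 18.8 and 16.6 CPM in the second (2.03 ± 0.13, adjusted p = 6.43e-06). The exceptions were lys-3, with 28.7, 31.2, 53.9 and 49.3 CPM in the third series, against 77.7, 78.2, 122 and 94.1 CPM in the second (-1.23 ± 0.08, adjusted p = 5.81e-06), spp-7 (-1.69), spp-13 (-0.72), spp-20 (-0.68) and spp-31 (-0.55). Between the second and first series, 9 of these genes were lower in the second and 1 higher, and 13 were higher and 1 lower in the third than in the first. In compound libraries 14 genes were higher and 0 lower by edgeR (10 and 0 by DESeq2, 17 and 1 at an unadjusted p under 0.05), with a median of 0.39. The lower count in DMSO libraries was 3 without library 13 or either ser-5 library. lys-4 was chosen after its values were seen.

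C-type lectin genes, for secreted sugar-binding proteins many of which change on infection, moved in both directions, with 46 of 157 higher (29.3%) and 13 lower. clec-51 had 20.8, 22.4, 21.4 and 20.9 CPM in the third series, against 9.32, 8.4, 5.92 and 8.46 CPM in the second (1.42 ± 0.11, adjusted p = 2.11e-05). clec-218 went the other way, with 10.2, 11, 14.3 and 14.3 CPM in the third series, against 50.4, 51, 44.3 and 56.7 CPM in the second (-2.04 ± 0.10, adjusted p = 1.79e-06). Of 22 CUB-like and pathogen response genes 11 were higher and 7 lower. Higher were F55G11.4, with 67.7, 71.6, 65.6 and 78.6 CPM in the third series, against 21.5, 21.3, 26.8 and 25.2 CPM in the second (1.57 ± 0.08, adjusted p = 1.74e-06), and irg-8 (1.07 ± 0.07), and lower was irg-4 (-1.66 ± 0.17), shown here after its values were seen. Antimicrobial peptide genes gave 15 of 45 lower and 8 higher. Genes known to respond to infection thus had no single direction. The higher count of peptide genes was 3 with N2 pairs summed and 4 or 5 without library 14, 26 or any mutant library.

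Lysosomal genes were called in both directions. In the list of V-ATPase and lysosomal protease genes 14 of 44 were higher and 15 lower. The lower count was 6 with N2 pairs summed and 9 without library 26 or in the mutants alone, and the higher count was 9 without either ser-7 library. Grouped by symbol after the values were seen, 12 of 20 vha genes, for subunits of the acidifying proton pump, were lower and 2 higher, while 8 of 13 asp genes, for aspartyl proteases, were higher and 1 lower. vha-5 had 95.2, 94.3, 92.5 and 87.3 CPM in the third series, against 135, 124, 143 and 166 CPM in the second (-0.63 ± 0.08, adjusted p = 0.000418). asp-1, for a major intestinal protease, had 1400, 1470, 1240 and 1570 CPM, against 1080, 1100, 531 and 826 CPM in the second (0.73 ± 0.14, adjusted p = 0.00385), and asp-17 22.8, 29.5, 37.7 and 30.6 CPM, against 8.62, 8.00, 6.66 and 6.45 CPM (2 ± 0.15). The cysteine protease genes cpr-1, cpr-4 and cpr-9 were higher (0.84, 0.74 and 1.04) and cpr-5 lower (-0.91). The exc genes shape the excretory canal, a tubule rich in V-ATPase. Grouped in the same way, 6 of 9 were lower and 0 higher, with a median of -0.42 (-0.09 in compound libraries). In the list of coelomocyte and excretory cell genes 4 of 11 were lower and 1 higher (median -0.12). The nuclear receptor gene nhr-31, known to regulate the pump in the canal, had 65.0, 64.6, 76.1 and 81.5 CPM in the third series, against 104, 100, 131 and 130 CPM in the second (-0.70 ± 0.05, adjusted p = 1.44e-05). A link between these differences was not tested.

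Genes of DNA replication and of oocytes were higher by small amounts. Of 42 DNA replication and cell cycle genes 30 (71.4%) were higher and 0 lower by edgeR (33 and 0 by DESeq2, 37 and 0 at an unadjusted p under 0.05), but the median was only 0.25. In all 3 strains 39 (92.9%) were higher, against 26.6% of all tested genes. The ribonucleotide reductase gene rnr-1 had 662, 661, 466 and 542 CPM in the third series, against 433, 459, 323 and 359 CPM in the second and 473, 345 and 441 CPM in the first (0.55 ± 0.07, adjusted p = 0.000287). The replicative helicase gene mcm-7 had 374, 377, 336 and 312 CPM in the third series, against 278, 277, 232 and 225 CPM in the second (0.46 ± 0.06, adjusted p = 0.000372). Groups did not overlap for either gene, and N2 lay above the mutants in both series. cdt-1, for a replication licensing factor, was higher by 0.41 ± 0.06. Of 36 oocyte and eggshell genes 29 (80.6%) were higher and 0 lower (30 and 0 by DESeq2, 32 and 0 at an unadjusted p under 0.05), with a median of 0.25. Examples are chs-1, the chitin synthase gene of the eggshell, with 195, 195, 172 and 191 CPM in the third series, against 154, 164, 137 and 146 CPM in the second (0.32 ± 0.05, adjusted p = 0.00181), gna-2, which makes the chitin precursor (0.31 ± 0.06), and the germ cell gene nos-2 (0.41 ± 0.07).

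Meiosis genes gave 18 of 34 higher (median 0.19), for example htp-3 of the chromosome axis, with 86.4, 85.0, 74.5 and 82.5 CPM in the third series, against 66.2, 70, 65.4 and 63.4 CPM in the second (0.30 ± 0.06, adjusted p = 0.00349). Germ granule and small RNA genes gave 12 of 37 higher (median 0.12), more clearly in N2 than in the mutants. In N2 alone 26 were higher and 0 lower, and in the mutants alone 4 were higher and 7 lower. The median difference was 0.21 in N2, 0.04 in ser-7 and 0.08 in ser-5. In all 3 strains 21 genes (56.8%) were higher and 1 (2.7%) was lower, against 26.6% and 27.4% of all tested genes. Within this list the difference was smaller in the mutants than in N2 for 11 genes past the threshold and larger for 1 (4 and 0 with N2 pairs summed). The higher count of the list was 4 to 7 without any N2 or ser-7 library. The germline markers pgl-1 (log2 fold change 0.05, edgeR adjusted p = 0.725) and glh-1 (-0.11, adjusted p = 0.569) were not called. The oocyte markers rme-2 (0.35, adjusted p = 0.00512) and oma-1 (0.29, adjusted p = 0.0052) were higher. Early embryo genes gave 16 of 52 higher and 3 lower (median 0.25), with 10 higher when N2 pairs were summed or in the mutants alone. The yolk protein genes vit-3 and vit-4 were higher by 0.58 ± 0.10 and 0.99 ± 0.11, with vit-4 at 702, 664, 372 and 501 CPM in the third series, against 366, 373, 134 and 290 CPM in the second. The ser-7 library was lowest in each series, so the groups overlapped although every strain moved the same way. With the N2 pairs summed the higher counts were 16 for DNA replication, 11 for oocyte, 4 for meiosis and 2 for germ granule genes, and compound libraries gave none called higher in these 4 lists by edgeR or DESeq2 (0 at an unadjusted p under 0.05), with medians of 0.04, 0.02, 0.03 and -0.06. Without 1 library the oocyte count was 15 (third-series N2 library 26), 17 (either ser-7 library) or 18 (second-series N2 library 13), and the meiosis count 7 to 11 without any library but a ser-7 one.

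Sperm genes were higher from a very low level. Of 70 tested, 28 (40%) were higher and 4 lower, with a median of 0.62. The major sperm protein genes gave 18 of 23 msp genes higher, as grouped by symbol after the values were seen. msp-81 had 4.85, 7.47, 0.978 and 4.53 CPM in the third series, against 3.22, 2.71, 0.221 and 1.46 CPM in the second and 0.951, 0.756 and 0.253 CPM in the first. Each strain was higher in the third series, but the ser-7 libraries were so low that the groups overlapped (1.32 ± 0.22, adjusted p = 0.00163). The range of the list level over the 4 second-series libraries, from -1.39 for ser-7 to 0.36 for N2 on the log2 scale, was wider than the difference between series. The count fell to 10 in the fit of 11 libraries and in the mutants alone, to 16 with N2 pairs summed or without the third-series ser-7 library 27, to 17 and 18 without the second-series libraries 15 and 14, and to 11 without third-series library 26. The msp copies are nearly identical, so their single values are uncertain. spe-11, for a sperm protein needed by the embryo, was lower, with 0.602, 0.882, 0.620 and 0.890 CPM in the third series, against 1.75, 1.33, 1.72 and 2.23 CPM in the second (-1.23 ± 0.22, adjusted p = 0.00275).

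**Figure D4:**
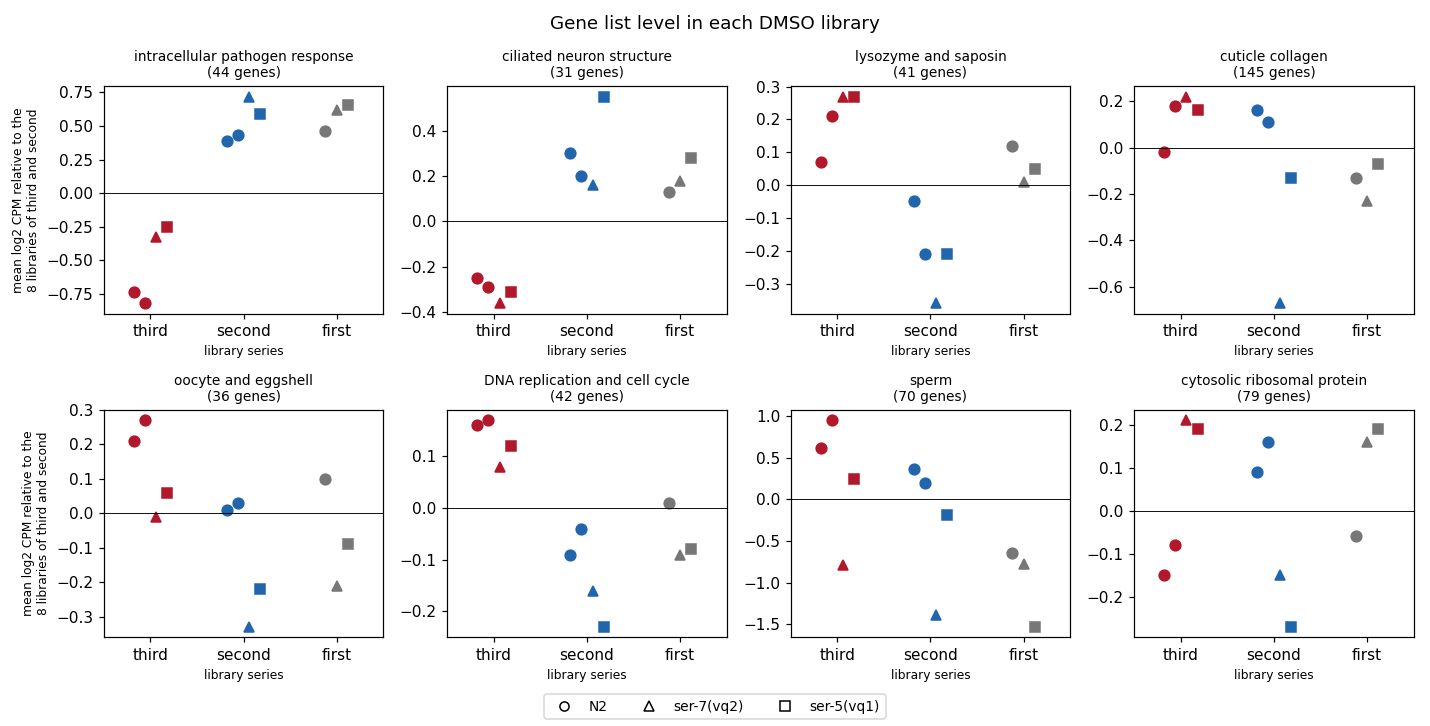
Mean log2 CPM over the genes of 8 lists in each DMSO library, relative to the mean of the 8 libraries of the third and the second series, by library series, with 1 point per library and the marker shape giving the strain. The third and the second series do not overlap for the intracellular pathogen response, cilium, lysozyme and saposin, and DNA replication lists, and they overlap for the sperm and collagen lists, where the second-series ser-7 library lies lowest of those 8 libraries (-1.39 and -0.67).

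Cuticle collagen genes were higher in the mutants more than in N2. Of 145 tested 32 (22.1%) were higher and 3 lower, with a median of 0.24, but the median difference was -0.01 in N2, 0.95 in ser-7 and 0.37 in ser-5. In N2 alone 24 were higher and 16 lower, with 2565 higher and 3041 lower of 15546 genes in that fit. The higher share of collagen genes in N2 was thus near that of all genes. col-93 had 139, 138, 76.9 and 66.6 CPM in the third series, against 31.3, 43.7, 13.3 and 11.9 CPM in the second and 23.6, 12.4 and 8.5 CPM in the first (2.17 ± 0.14, adjusted p = 5.81e-06), and col-20 had 429, 465, 335 and 284 CPM, against 168, 197, 130 and 98.7 CPM (1.36 ± 0.07, adjusted p = 2.78e-06). Both were clearly higher in every strain. In compound libraries 37 of 126 collagen genes were higher and 0 lower by edgeR (29 and 0 by DESeq2, 56 and 1 at an unadjusted p under 0.05). Among genes of the epidermis and its matrix, noah-1 was higher (364, 356, 286 and 334 CPM in the third series, against 225, 243, 170 and 189 CPM in the second, 0.69 ± 0.06), and the patched-related ptr-22 was lower (27.1, 24.1, 27.3 and 30.0 CPM, against 82.3, 73.4, 98.9 and 92.8 CPM, -1.69 ± 0.07, adjusted p = 1.19e-06).

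Muscle genes divided. Of 40 body wall muscle genes 11 were lower and 2 higher, with a median of -0.01. The calls differed by strain: 21 were lower and 1 higher in N2 alone, and 9 lower and 11 higher in the mutants alone. For 16 the difference was larger in the mutants than in N2 past the threshold. That count was 1 with N2 pairs summed and 5 to 24 without 1 library. The median difference was -0.18 in N2, 0.16 in ser-7 and 0.01 in ser-5. In all 3 strains 12 genes (30%) were lower, near the 27.4% of all tested genes, and 3 (7.5%) were higher, against 26.6%. The titin gene ttn-1 had 54.8, 57.6, 50.9 and 51.8 CPM in the third series, against 89.6, 85.5, 65.3 and 92.1 CPM in the second (-0.63 ± 0.08, adjusted p = 0.000252), and the troponin gene tni-1 55.2, 55, 62.0 and 74.3 CPM, against 101, 96.1, 87.3 and 112 CPM (-0.70 ± 0.07, adjusted p = 6.57e-05). The myosin gene unc-54 had 752, 673, 742 and 751 CPM in the third series, against 910, 1010, 250 and 420 CPM in the second and 876, 381 and 625 CPM in the first, and was not called (0.37 ± 0.35, adjusted p = 0.474). Its level was even across the third series and spread 4-fold across the second, with N2 on one side of the third-series values and both mutants on the other. The other body wall muscle marker, myo-3, was lower (log2 fold change -0.63, edgeR adjusted p = 0.000639). It averaged 156 CPM in the third series, 243 CPM in the second and 210 CPM in the first.

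Among genes for nuclear hormone receptors, many of which govern metabolism and detoxification, 63 of 219 (28.8%) were lower and 8 higher, with a median of -0.21. nhr-3 had 57.1, 53.7, 68 and 60.2 CPM in the third series, against 90.2, 81.8, 118 and 93.3 CPM in the second (-0.69 ± 0.06, adjusted p = 3.88e-05). nhr-8, a receptor gene of toxin resistance and sterol use, was higher instead, with 28.5, 30.1, 31.2 and 26.3 CPM, against 12.3, 13.6, 14.5 and 16.3 CPM (1.03 ± 0.10, adjusted p = 5.76e-05). The lower count was 39 with N2 pairs summed, 40 without library 26, 32 without either ser-7 library and 29 without either ser-5 library, and 1 receptor gene was lower in compound libraries. The higher count was 3 to 5 with N2 pairs summed or without library 13, 25, 26 or either ser-7 library. Detoxification enzymes included both directions. Cytochrome P450 genes gave 18 of 69 lower and 6 higher, UDP-glucuronosyltransferase genes 19 of 62 lower and 9 higher, and glutathione S-transferase genes 11 of 47 higher and 3 lower. The higher count of transferases fell to 5 with N2 pairs summed, 7 by DESeq2, 4 without library 27, 5 without library 15 or 26 and 6 without library 13 or either ser-5 library. That of glucuronosyltransferases was 3 with N2 pairs summed or without either ser-7 library and 5 without library 13. ugt-1 had 5.39, 5.67, 7.5 and 7.12 CPM in the third series, against 22.1, 21.3, 20.8 and 23.2 CPM in the second and 19.8, 17.5 and 19.5 CPM in the first (-1.79 ± 0.11, adjusted p = 3.72e-06). cyp-35B1, a gene used to read insulin signalling, was lower by 0.79 ± 0.08 on the log2 scale.

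Genes of metal and lipid handling were called in both directions. The ferritin gene ftn-1 had 16.3, 15.6, 17.3 and 18.5 CPM in the third series, against 33.7, 36.2, 37.8 and 40.8 CPM in the second and 47.3, 36.8 and 41.8 CPM in the first (-1.14 ± 0.07, adjusted p = 3.64e-06), a difference of -1.12 to -1.14 in each strain. The metallothionein gene mtl-2 had 18.8, 18.1, 21.7 and 22.9 CPM in the third series, against 10.2, 9.19, 6.39 and 7.17 CPM in the second (1.31 ± 0.15, adjusted p = 0.00017). In fatty acid metabolism, acs-2, an acyl-CoA synthetase gene induced by fasting, had 82.8, 114, 89.5 and 72.1 CPM in the third series, against 238, 218, 185 and 153 CPM in the second and 111, 112 and 92.1 CPM in the first (-1.15 ± 0.09, adjusted p = 2.38e-05). Here the second series was the high one and the first lay near the third. elo-5, which elongates branched fatty acids, had 85.7, 81.9, 72.5 and 83 CPM in the third series, against 40.7, 40.7, 31.0 and 55 CPM in the second and 64.5, 68.9 and 83.5 CPM in the first (0.96 ± 0.09, adjusted p = 5.75e-05). The desaturase genes went apart, with fat-7 higher (0.78 ± 0.08), fat-3 lower (-0.54 ± 0.06) and fat-5 not called (0.24 ± 0.09, adjusted p = 0.0811). sams-1 (0.49 ± 0.07) and pmt-2 (0.63 ± 0.07), of S-adenosylmethionine and phosphatidylcholine synthesis, were higher, in a list with 7 of 21 higher and 3 lower.

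Stress genes divided by pathway. Of 25 genes of the endoplasmic reticulum stress response 10 were higher and 1 lower, with a median of 0.18. The higher count was 6 without either ser-7 library and 5 with N2 pairs summed. Its chaperone gene hsp-4 had 357, 361, 355 and 343 CPM in the third series, against 266, 267, 306 and 257 CPM in the second (0.36 ± 0.07, adjusted p = 0.00285). Of 5 heat-inducible genes that passed the filter 4 were lower (median -0.80), and 2 in the fit of 11 libraries. All 5 were lower in all 3 strains, against 27.4% of all tested genes. For 0 of them, however, did the third-series libraries lie wholly below the second-series ones, against 13.2% of all tested genes. In both series the mutants lay above N2 for the genes shown: hsp-16.2 had 9.80, 7.26, 31.1 and 17.4 CPM in the third series, against 16.9, 13.8, 31.8 and 19.3 CPM in the second (adjusted p = 0.0536), and hsp-70 4.85, 4.82, 8.22 and 9.10 CPM, against 9.43, 8.05, 19.5 and 15.0 CPM (-0.93 ± 0.12, adjusted p = 0.000291). Proteasome genes gave 0 of 33 called by edgeR and by DESeq2 (4 higher at an unadjusted p under 0.05), and insulin-like peptide genes 1 of 37.

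For some housekeeping genes the series difference ran in opposite directions in N2 and in the mutants. A term for this, added to the fit after the data were seen, was past the threshold for 2974 of 16091 genes (18.5%), 1784 of them with a larger series difference (the third minus the second) in the mutants than in N2. Of 79 cytosolic ribosomal protein genes, which encode the parts of the ribosome, 77 had a larger difference in the mutants, with a median of 0.63 on the log2 scale. The median difference between series was -0.25 in N2, 0.35 in ser-7 and 0.47 in ser-5. Taken alone, 73 genes were lower in N2 and 76 higher in the mutants, against 3041 of 15546 and 2572 of 15630 genes in these fits. The N2 count rests on near-duplicate pairs, without an independent replicate known from the labels. Over all 3 strains none was called by edgeR (1 at an unadjusted p under 0.05, 1 higher by DESeq2). rpl-2 had 1500, 1560, 1750 and 1660 CPM in the third series, against 1760, 1950, 1380 and 1330 CPM in the second and 1400, 1620 and 1660 CPM in the first. Both N2 libraries of the third series lay below both of the second, and the mutants lay above theirs. Its difference in the mutants exceeded that in N2 by 0.60 ± 0.09 (SE, adjusted p = 0.000164).

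The same term was past the threshold in the same direction for 41 of 59 nuclear genes of oxidative phosphorylation (1 in the other direction), 7 of 8 genes encoded in the mitochondrion, 40 of 103 neuropeptide genes and 32 of 145 collagen genes, against 1784 of 16091 overall. nduo-5, a mitochondrially encoded subunit of complex I, had 171, 188, 262 and 242 CPM in the third series, against 141, 139, 119 and 114 CPM in the second and 168, 168 and 167 CPM in the first, so that the strains were equal in the first series, the mutants were higher in the third and lower in the second. With the N2 pairs summed, 56 ribosomal, 7 oxidative phosphorylation, 4 mitochondrially encoded, 3 neuropeptide and 16 collagen genes were past the threshold, among 384 in all. Without 1 library the total was 1359 (third-series N2 library 25) or 1761 (second-series N2 library 14), and at least 2039 without any other. Each mutant has 1 library in a series, so the term rests on the 2 mutants moving alike.

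**Figure D5:**
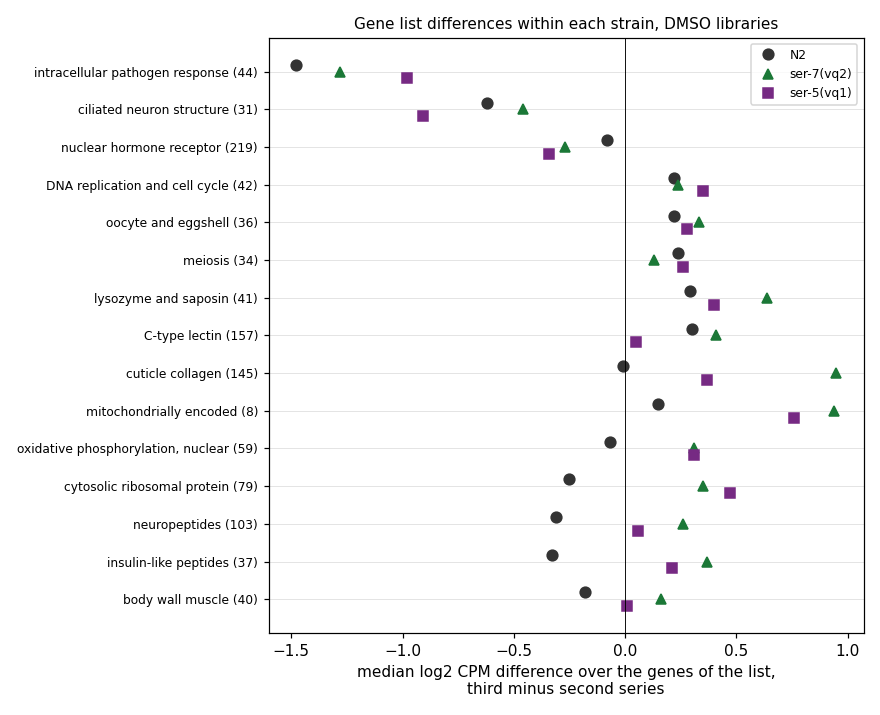
Median over the genes of a list of the log2 CPM difference, the third minus the second series, in N2 (circles), ser-7(vq2) (triangles) and ser-5(vq1) (squares), with the number of tested genes in brackets. The strains lie on the same side of 0 for the intracellular pathogen response (-1.48, -1.28 and -0.98), cilium, DNA replication, oocyte and lysozyme lists, and N2 lies on the other side from both mutants for ribosomal protein (-0.25, 0.35 and 0.47), oxidative phosphorylation, neuropeptide and insulin-like genes.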

How the data were processed

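Whole-animal RNA gave single reads of 100 bases, 6 libraries to a lane (from the labels). For 22 libraries the authors deposited unscaled whole-number counts per gene. No source used here names the aligner, the counting program, its handling of strand and shared reads, or the genome build. All 19598 gene identifiers were found in Ensembl release 115 (WBcel235), which gave the positions, and 11 symbols that had turned into dates were replaced through the identifiers. Library series were formed from runs of library numbers, and each series holds 2 of the labels' batch tags, none of them shared with another series.

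In R 4.3.3, edgeR 4.0.16 filtered genes (minimum count 10, minimum total 15), applied TMM and fitted strain and series over 8 DMSO libraries by robust quasi-likelihood. The contrasts with the first series used all 11, and the contrast in 6 libraries with serotonin or loxapine had strain and compound as covariates. The ser-5 loxapine library of the second series has no third-series partner and was left out of it. P-values were adjusted over all genes tested by Benjamini-Hochberg with a threshold of 0.05. Each SE was the size of the log2 fold change divided by the root of its F statistic. CPM uses the TMM-scaled total of each library, and list levels and strain differences use log2 CPM with a prior count of 2. The pipeline was tested on simulated data. DMSO libraries held 25652111 to 39765014 counts, and values of low genes such as ser-7 rest on few counts.

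The 61 gene lists, their members and the libraries compared were chosen with earlier results of these data known, and lists are described by counts and medians only. Genes named are the 12 higher and 12 lower that changed most among called genes whose 2 series did not overlap and whose average log2 CPM was 2 or more, up to 3 members of each list with the lowest p, and a fixed set. All other genes with values, and the families grouped by symbol, were chosen after their values were seen. The vit-2 and vit-6 genes of the fixed set are not analysed here. The alternatives were RLE and upper-quartile scaling, DESeq2 1.42.0, no filter on low counts, 11 libraries, N2 pairs summed, no strain covariate, N2 only, mutants only, and each library left out. The alternatives for lists under upper-quartile scaling, N2 only and single libraries left out, and the test of series by strain with its alternatives, were added after the data were seen.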

Additional observations from a re-analysis of the deposited data

Results flagged for a closer look

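For 100 genes in 2 series, 200 groups of 4 libraries were examined. In 13 of them 1 library stood apart from the other 3 past Dixon's 95% critical value for 4 values, on the log2 CPM scale. Chance gives about 1 in 20 for 4 independent values of 1 kind. Each group here held 2 near-duplicate N2 libraries and 1 of each mutant, so that rate does not apply. A flag on a mutant library cannot be told apart from a strain difference. The ratio of the gap to the range is given for each flag. In the third series, library 28 (ser-5) was high for clec-50 (0.831, 840 CPM against 735 to 752), library 27 (ser-7) was high for F14H12.3 (0.96, 33.2 CPM against 15.6 to 16.1) and low for chs-1 (0.847, 172 CPM against 191 to 195), library 26 (N2) was low for cpt-3 (0.889, 18.1 CPM against 21.1 to 21.5) and unc-54 (0.875, 673 CPM against 742 to 752), and library 25 (N2) was low for dyf-6 (0.858, 2.94 CPM against 3.70 to 3.85). In the second series all flagged values came from library 15 (ser-7): it was high for eol-1 (0.832, 198 CPM against 137 to 145), chil-18 (0.857, 16.7 CPM against 14.6 to 14.9) and fbxa-75 (0.902, 56.7 CPM against 48.1 to 48.9), and low for vit-3 (0.853, 190 CPM against 395 to 449). The receptor genes were low in their own mutants: ser-5 in the third-series ser-5 library (0.941) and ser-7 in the third-series (0.985) and second-series (0.88) ser-7 libraries.

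For 28 of the 100 genes shown, the third-minus-second difference itself differed between the mutants and N2 (edgeR, adjusted p under 0.05, a term added after the data were seen). Over all tested genes it did for 2974 of 16091 (18.5%), and for 384 with the near-duplicate N2 pairs summed. The 100 genes were not drawn at random. Values for the 28 are the difference in the mutants minus that in N2 on the log2 scale. Among genes higher in the third series they were 0.35 for Y51F10.7, 0.42 for lipl-5, 0.51 for clec-50, 0.68 for spp-17, 0.71 for asp-17, 0.93 for lips-11, 0.63 for spp-4, 0.66 for asp-1, 0.30 for nos-2, 0.78 for mtl-2, 0.74 for nduo-5, 0.64 for ctc-2 and -0.33 for irg-8. Among genes lower in the third series they were 1.26 for gba-2, -0.69 for ver-1, 0.77 for F15H10.9, 0.44 for clec-218, 0.60 for skr-5, 0.50 for eol-1, 0.65 for chil-18, -0.73 for daf-19, 0.31 for lys-3, 0.44 for fbxa-75, 0.28 for tni-1 and -0.33 for vha-5. Among genes not called between the series they were 1.62 for unc-54, 0.60 for rpl-2 and 0.75 for hsp-16.2. For unc-54 the 3 strains moved by 1.57 (ser-7), 0.84 (ser-5) and -0.43 (N2).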

How the results depend on the processing

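The count between the third and second series was 4588, and it lay between 4402 and 5606 under RLE and upper-quartile scaling, DESeq2, no filter, 11 libraries, mutants only and N2 only, between 3060 and 4291 without single libraries, and at 3100 without the strain covariate. Summing the N2 pairs gave 2775, and it gave 57 in place of 159 for the second against the first series and 384 in place of 2974 for the strain term, which lay between 1359 and 3206 without single libraries. In compound libraries DESeq2 gave 321 in place of 730, and single libraries left out gave 133 to 688. The compound interaction stayed at 0 under all alternatives run (911 genes at an unadjusted p under 0.05 with N2 pairs summed). Of 89 genes shown and called, 76 kept their call in all 17 alternatives and 0 reversed. acdh-1 lost it in 8 alternatives, ctc-2 and daf-19 in 6 each, msp-3 in 11, F44E5.4 and F44E5.5 in 3 each and msp-81 in 2. In N2 only, rpl-2 was -0.29 and unc-54 -0.44, in place of 0.02 and 0.37. The cause of these shifts was not tested, except that fewer libraries enter each of the leave-out and summed fits. No paired analysis was possible because no batch tag of the labels is shared between the series compared, so a block on it would absorb the series itself, and strain already matches their libraries.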

Other observations

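Lower genes were unevenly spread over the chromosomes: 20.4% of the genes tested on V and on X were lower in the third series, against 12.7% on I, 15.3% on II, 14.1% on III and 14.2% on IV. Higher genes made up 9.99% on V and 10.5% on X, against 11.5% to 14.1% on the others. Genes lower in the third series had longer exonic sequence (median 1568 bases) than those higher (1193 bases) or all tested (1304 bases), and over all 16091 genes the log2 fold change had a Spearman correlation of -0.156 with exonic length, a description across genes, which are not independent.

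Branches of the F-box gene family, whose proteins recruit targets to ubiquitin ligases, moved apart, as grouped by symbol after the values were seen, and are set against 12.2% higher and 16.3% lower among all genes. Of 97 fbxb genes 40 were higher in the third series and 1 lower (median 0.53), and of 38 fbxc genes 13 were higher, whereas of 147 fbxa genes 46 were lower and 4 higher. fbxa-75 had 13.4, 11.4, 18.7 and 18.2 CPM in the third series (N2, N2, ser-7, ser-5), against 48.3, 48.1, 56.7 and 48.9 CPM in the second and 41.4, 49.4 and 55.7 CPM in the first (N2, ser-7, ser-5), a log2 fold change of -1.74 ± 0.10 (SE, edgeR adjusted p = 3.64e-06). The MATH-domain gene math-28 had 5.45, 5.12, 5.97 and 7.48 CPM in the third series, against 13.7, 15.7, 22 and 22.8 CPM in the second (-1.62 ± 0.11, adjusted p = 5.99e-06). Of 19 skr genes, for the Skp1-related partners of F-box proteins, 11 were higher and 3 lower. Many of these genes are similar copies, so single values are uncertain.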
